A study of Mus musculus with 4 samples.

Results

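Glutathione, thioredoxin and related antioxidant genes were examined in lung T helper 2 (Th2) cells. They were chosen by gene symbol: glutathione S-transferases, glutathione peroxidases, peroxiredoxins, thioredoxins and all other symbols that begin with Txn, glutaredoxins, superoxide dismutases, heme oxygenases, quinone reductases, Gclc, Gclm, Cat, Gsr, Gss, Nfe2l2 and Keap1. This gave 57 of the 11883 genes in the authors' deposited table, 1 of them (Gpx2-ps1) a pseudogene by its symbol. Nqo1, a classical member of the quinone reductases, was not analysed here. RNA came from Th2 cells sorted from digested lungs of C57BL/6 mice as live cells positive for CD4 and T1/ST2, after chronic papain, a papaya protease used to set off type 2 inflammation of the airways. The 4 samples were 2 of genotype Klrg1Cre Gata3(fl/fl), called Klrg1Cre below, and 2 of genotype Gata3(fl/fl), called control. Both genotypes thus carried floxed Gata3, the gene of the master transcription factor of the Th2 lineage, and both received papain. A Cre recombinase named for Klrg1 was carried by the first genotype only. Effects of the Cre itself cannot be told apart from those of Gata3 deletion, since no mice with Cre and unfloxed Gata3 were among the samples. Whether each sample stands for its own mouse is not in the labels, and the p-values therefore reflect sample-to-sample spread that could be technical.

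The deposited table gives group means in CPM, read counts scaled to the size of the library, with no column for a single sample. Its headers name the groups ILC2 deficient and WT, where ILC2 are group 2 innate lymphoid cells. The first was taken as Klrg1Cre and the second as control because mice that lack Cre serve as controls. No label spells out that link, and every direction below rests on it. If Klrg1Cre mice lack ILC2, effects of that lack cannot be told apart from those of Gata3 deletion within the sorted cells. Low deposited means fall on steps set by whole reads, and the library totals that follow from them were 26019065 and 14564426 reads in Klrg1Cre and 33379572 and 31961572 reads in control. Whole reads per library followed for 24 of the 57 genes in both groups (42.1%) and for 5351 of all 11883 (45.0%). Which library is which sample is unknown, so each group has a larger and a smaller library by reads, and values per library are always given in that order. The precursor of ribosomal RNA, Rn45s, held 67.1% of the reads in Klrg1Cre and 51.4% in control, and the other listed genes held 18.2% and 17.8%. Klrg1 was at 1.38 and 7.003 CPM in the Klrg1Cre libraries, against 42.0 and 54.9 CPM in those of control (adjusted p = 0.0701 in the deposited table). Gata3 had deposited means of 293.9 CPM for Klrg1Cre and 221.4 CPM for control (adjusted p = 0.551), and a count over the whole gene does not check a deletion within it. T cell markers were present in both groups, with 11 of 14 listed at a summed level of 1296 CPM for Klrg1Cre and 1311 CPM for control. Macrophage and monocyte markers were listed for 19 of 23 genes, at a summed level of 1893 CPM for Klrg1Cre and 2687 CPM for control, and erythroid markers for 0 of 9. That difference lay in Chil3, a chitinase-like protein, with deposited means of 1124 CPM for Klrg1Cre and 1932 CPM for control. Without Chil3, left out after its values were seen, the other 18 summed to 769.2 CPM for Klrg1Cre and 755.1 CPM for control, and of all 19 there were 9 with higher and 10 with lower means. ILC2 markers summed to 657.8 CPM for Klrg1Cre and 642.9 CPM for control, a sum to which Gata3 gave the most. Single ILC2 markers differed in both directions, with 4 of 12 higher (Nmur1, Gata3, Id2 and Calca) and 2 lower (Klrg1 and Arg1) at an unadjusted p below 0.05 in the deposited table. Over all genes, 3.72% were higher and 3.37% lower at that threshold. Regulatory T cell markers summed to 308.9 CPM in Klrg1Cre and 515.4 CPM in control. Of the 10 listed, 9 were lower at an unadjusted p below 0.05 in the deposited table, against 3.37% of all genes. The part of such cells in the results below was not tested. Fewer cells of a type and less RNA per cell cannot be told apart in such bulk samples.

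Cells remove hydrogen peroxide and lipid peroxides with a pair of parallel thiol systems. In one, glutathione is made from glutamate, cysteine and glycine, is oxidized by glutathione peroxidases and glutaredoxins and is reduced again by glutathione reductase; in the other, thioredoxins reduce peroxiredoxins and are themselves reduced by thioredoxin reductases, with NADPH as the final electron donor of both. The transcription factor NRF2, encoded by Nfe2l2 and held at low levels by KEAP1, drives many of these genes through the antioxidant response element. In T cells, activation and proliferation raise reactive oxygen species, and glutathione is needed for the metabolic changes of activated T cells.

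Most antioxidant genes had close group means in the genotypes, and no single gene passed adjustment. In the authors' deposited table, 0 of 57 rose and 0 fell at an adjusted p below 0.05, where 0.0252% of all genes rose and 0.0337% fell. The smallest adjusted p of the 57 in that deposited table was 0.607. At an unadjusted p below 0.05 there was 1 gene with a higher mean, Nqo2, and 1 with a lower mean, Txnrd2, against 3.72% and 3.37% of all genes in the deposited comparison (7.09% in either direction). limma on the 24 genes with libraries gave 0 at an adjusted p below 0.05, where 0.131% of all genes so split were higher and 0.0934% lower. At an unadjusted p below 0.05 limma gave 0 of the 24 as well, where 4.24% of all genes so split were higher and 3.55% lower. Deposited means were higher in Klrg1Cre for 27 genes and lower for 30, and the median log2 ratio was -0.01 for these genes and 0.01 for all genes. Of the 40 antioxidant genes whose larger group mean was at least 5 CPM, 35 had group means within 1.25-fold of each other (87.5%), against 78.9% of all 6549 genes at that level. The same 40 had 1 gene more than 1.5-fold apart, Txnrd2, where 4.95% of all genes at that level were. This is a description; no test of the list was run.

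**Figure D1:**
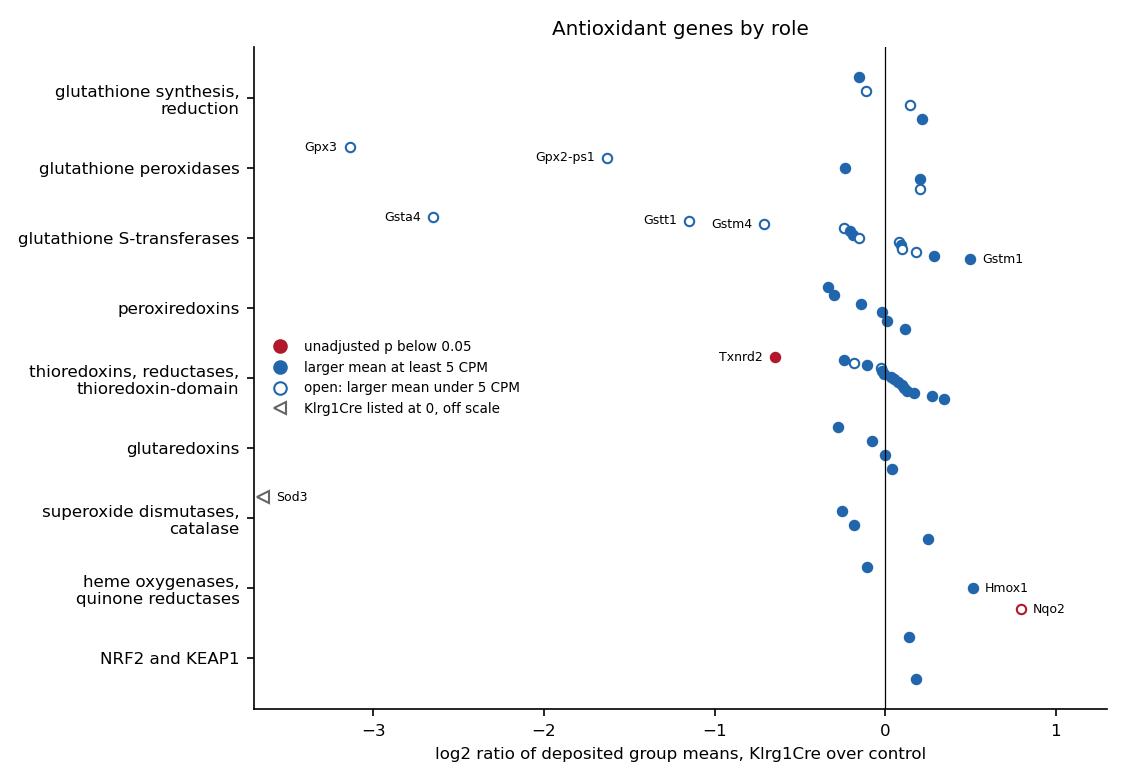
Log2 ratio of the deposited group means, Klrg1Cre over control, for each of the 57 antioxidant genes (1 point per gene) in rows by role, filled where the larger mean was at least 5 CPM and red where the unadjusted p was below 0.05. Filled points lie close to 0 with Txnrd2 at -0.65 and Hmox1 at 0.51 the farthest out, open points spread further, and Sod3, listed at 0 in Klrg1Cre, is drawn at the left edge.

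The regulators NRF2 and KEAP1 both had higher means in Klrg1Cre, and neither passed a test. Nfe2l2 had deposited means of 14.96 CPM for Klrg1Cre and 13.6 CPM for control (1.10-fold higher, adjusted p = 0.891). Keap1, encoding the adaptor that marks NRF2 for degradation, had deposited means of 24.0 CPM for Klrg1Cre and 21.2 CPM for control (1.13-fold higher, adjusted p = 0.839). Neither gene could be split into libraries, so the spread behind these means is unknown. The core of the antioxidant response element, TGACNNNGC on either strand, was looked for in the 250 bases before each gene's start in RefSeq promoters of build GRCm38.p6, a later build than the mm9 named in the submitters' processing notes. It was present for 7 of the 47 antioxidant genes that the promoter table held (14.9%), against 14.1% of the 9432 genes of the deposited table that matched and 11.5% of all 27025 genes in the promoter table, so the share was near that of other genes. The 7 genes were Nfe2l2, Gclm, Txnrd1, Prdx1, Sod1, Txndc5 and Txndc11. Windows around the motif are shown for the regulator itself and for 4 enzymes described below, 5′ to 3′ on the strand of the gene, with the motif in capitals; where it lies on the opposite strand the capitals begin with GC and end with GTCA.
Nfe2l2, chr2:75704875-75704913, minus strand: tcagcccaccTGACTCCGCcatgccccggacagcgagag
Gclm, chr3:122245403-122245451, plus strand: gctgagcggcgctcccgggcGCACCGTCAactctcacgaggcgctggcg
Txnrd1, chr10:82859094-82859142, plus strand: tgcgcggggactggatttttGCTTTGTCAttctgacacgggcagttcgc
Prdx1, chr4:116685446-116685494, plus strand: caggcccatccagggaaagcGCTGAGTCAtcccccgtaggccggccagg
Sod1, chr16:90220686-90220734, plus strand: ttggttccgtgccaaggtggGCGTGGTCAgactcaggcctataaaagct
In the Prdx1 window the motif overlaps an AP-1 element (TGANTCA on either strand), the site of Fos and Jun dimers, and in the other 4 windows it does not. An AP-1 element was present in the same stretch of 8.51% of the antioxidant genes, 5.35% of the genes of the deposited table and 7.82% of all genes in the promoter table. Ratios of the 7 genes with the core ran both ways, from 0.793 for Prdx1 to 1.27 for Txnrd1, and 5 of the 7 had higher deposited means in Klrg1Cre, against 18 of the 40 without it. These matches are letters in a window and do not show that a factor bound there.

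Of the 4 genes of glutathione synthesis and reduction, 2 had higher and 2 lower means, 0 passed a test, and the 2 that could be split had overlapping libraries. Gclc, the catalytic subunit of glutamate-cysteine ligase, which catalyses the rate-limiting step of glutathione synthesis, had deposited means of 11.9 CPM for Klrg1Cre and 10.2 CPM for control (1.16-fold higher, adjusted p = 0.836). Gclm, its modifier subunit, held 4.46 and 3.78 CPM in the Klrg1Cre libraries and 5.06 and 2.38 CPM in the control libraries. The Gclm control libraries lay on either side of both Klrg1Cre libraries, and the deposited adjusted p was 0.916. Gss, glutathione synthetase, had deposited means of 3.27 CPM for Klrg1Cre and 3.53 CPM for control (adjusted p = 0.959). Gsr, glutathione reductase, held 7.99 and 5.70 CPM in the Klrg1Cre libraries, against 7.25 and 7.98 CPM in those of control. The Gsr libraries of the genotypes overlapped, with a difference on the log2(CPM + 1) scale of -0.15 (limma, 95% interval -0.61 to 0.32). Exons of Gss overlap those of Acss2 on the opposite strand in the GENCODE M21 annotation, so reads of that pair cannot be told apart without strand.

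Glutathione peroxidases, which spend glutathione to reduce peroxides, were carried by a pair of abundant genes whose means lay in opposite directions. Gpx1, the cytosolic selenoenzyme, had deposited means of 51.3 CPM for Klrg1Cre and 44.6 CPM for control (1.15-fold higher, adjusted p = 0.770). Gpx4, which reduces lipid peroxides in membranes and protects T cells from ferroptosis, had deposited means of 50.7 CPM for Klrg1Cre and 59.7 CPM for control (1.18-fold lower, adjusted p = 0.773). Neither passed a test, and neither was split into libraries. The other 3 listed members were below 1 CPM in both groups. Gpx7, a peroxidase of the endoplasmic reticulum, held 0.423 and 0.343 CPM in the Klrg1Cre libraries, against 0.539 and 0.125 CPM in those of control. Gpx3, the secreted plasma enzyme, had 2 reads in the larger Klrg1Cre library and 0 in the smaller, for a mean of 0.0385 CPM against 0.340 CPM in control (deposited unadjusted p = 0.100). Gpx2-ps1 had deposited means of 0.155 CPM for Klrg1Cre and 0.479 CPM for control (adjusted p = 0.782).

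Glutathione S-transferases, which couple glutathione to electrophiles, showed no common direction, with 6 of 13 higher and 7 lower in Klrg1Cre and 0 past an adjusted or unadjusted p of 0.05 in the deposited table. The most abundant was Gstp1, the pi-class enzyme, with deposited means of 22.8 CPM for Klrg1Cre and 21.4 CPM for control (1.07-fold higher, adjusted p = 0.945). Gstp3, of the same class, had 8.86 CPM for Klrg1Cre and 10.1 CPM for control in the same deposited columns (adjusted p = 0.866), and Gstp2 had 0.199 and 0.186 CPM. These 3 related genes may share reads, so how reads were divided among them is uncertain. Gstt2, a theta-class enzyme, held 8.15 and 10.4 CPM in the Klrg1Cre libraries, against 9.47 and 12.0 CPM in those of control. Its libraries overlapped (difference -0.19 on the log2(CPM + 1) scale, limma 95% interval -0.63 to 0.24). The genes that follow were picked after their values were seen. Gstm1, a mu-class enzyme, held 13.1 and 4.94 CPM in the Klrg1Cre libraries, against 5.36 and 7.38 CPM in those of control. Gsto1, an omega-class enzyme with glutaredoxin-like activity, held 11.7 and 7.14 CPM in the Klrg1Cre libraries, against 7.40 and 8.04 CPM in those of control. For both genes the larger Klrg1Cre library was the highest of the 4 and the smaller Klrg1Cre library the lowest. Gsta4, an alpha-class enzyme that clears the lipid peroxidation product hydroxynonenal, had 2 and 1 reads in Klrg1Cre and 18 and 12 reads in control. Both of its Klrg1Cre libraries were below both control libraries; the ratio of the pooled reads, each over its group's library totals, was 0.161 (95% exact interval 0.0314 to 0.518, which covers counting error only), and its deposited adjusted p was 0.704.

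Heme oxygenases and quinone reductases held the gene with the highest ratio of all 57, Nqo2. Nqo2, a quinone reductase that uses dihydronicotinamide riboside rather than NADPH, had deposited means of 4.81 CPM for Klrg1Cre and 2.77 CPM for control. In the deposited table that is 1.73-fold higher at an unadjusted p of 0.0296, and it did not pass adjustment over all genes (adjusted p = 0.637). Hmox1, the inducible heme oxygenase, which breaks down heme to biliverdin, iron and carbon monoxide, held 27.5 and 11.3 CPM in the Klrg1Cre libraries, against 13.5 and 13.7 CPM in those of control. The control libraries of Hmox1 were nearly equal, and the Klrg1Cre libraries lay on either side of them. Its deposited ratio was 1.43 (adjusted p = 0.836), and the log2 ratio was 0.51 with both libraries, 1.02 when the smaller Klrg1Cre library was left out and -0.26 when the larger was left out. Gstm1 and Gsto1 changed direction in the same way, with log2 ratios of -0.37 and -0.11 without the larger Klrg1Cre library. Of the 10 macrophage and monocyte markers that were split in Klrg1Cre, 9 were also higher in the larger Klrg1Cre library than in the smaller, against 53.0% of all 5820 genes split in that genotype. Summed over the 10 markers split in both groups, the level was 41.7 and 31.5 CPM in the Klrg1Cre libraries, against 33.8 and 41.0 CPM in those of control. These 10 held a small part of the sum over all 19 listed markers, 1893 CPM for Klrg1Cre and 2687 CPM for control. The most abundant markers, Chil3, Lyz2, Ctss and Cd68, could not be split, so their values per library are unknown. Marco held 0.538 and 0.0687 CPM in the Klrg1Cre libraries and was at 0 in both control libraries (deposited unadjusted p = 0.226). Of all 19 listed macrophage and monocyte markers, 9 had higher and 10 lower deposited means in Klrg1Cre. Other marker lists also differed between the Klrg1Cre libraries, summed over their genes split in both groups. ILC2 markers held 267.7 and 220.9 CPM there, and T cell markers 790.3 and 858.1 CPM. Regulatory T cell markers held 32.9 and 53.1 CPM, and markers of epithelial and club cells 9.19 and 15.3 CPM. The part of macrophage and monocyte transcripts, or of those of other cell types, in the values of Hmox1, Gstm1 and Gsto1 was not tested. Hmox2, the constitutive heme oxygenase, had deposited means of 16.0 CPM for Klrg1Cre and 17.2 CPM for control (adjusted p = 0.915), and its exons overlap those of Cdip1 on the opposite strand.

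**Figure D2:**
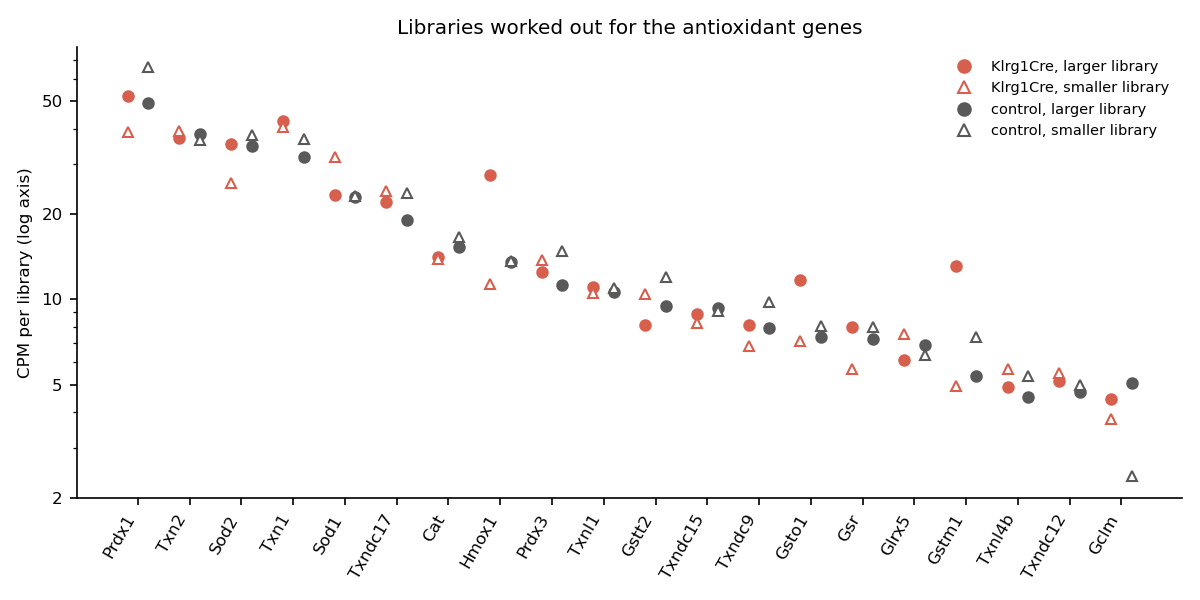
CPM in each library (log axis) for the 20 antioxidant genes that could be split in both groups and had a larger mean of at least 1 CPM, with Klrg1Cre in red left of control in grey, filled circles for the larger and open triangles for the smaller library of each group. Hmox1, Gsto1 and Gstm1 show the larger Klrg1Cre library above all others, Gclm shows control libraries far apart at 5.06 and 2.38 CPM, and most other genes have overlapping points.

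Thioredoxins and their reductases showed higher means for the cytosolic pair and a lower mean for the mitochondrial reductase, each short of adjusted significance. Txn1, the cytosolic thioredoxin, held 42.6 and 40.5 CPM in the Klrg1Cre libraries, against 31.8 and 36.8 CPM in those of control. Both Klrg1Cre libraries of Txn1 were above both control libraries, and its log2 ratio of 0.28 ranged from 0.17 to 0.38 when each library was left out in turn. limma gave a difference of 0.27 on the log2(CPM + 1) scale (95% interval -0.05 to 0.59, adjusted p = 0.722), and the deposited adjusted p was 0.729. Txnrd1, the cytosolic selenoenzyme that reduces it, had deposited means of 14.9 CPM for Klrg1Cre and 11.7 CPM for control (1.27-fold higher, unadjusted p = 0.0888, adjusted p = 0.738). Txnip, which binds and inhibits thioredoxin and limits glucose uptake, had deposited means of 39.1 CPM for Klrg1Cre and 37.2 CPM for control (adjusted p = 0.961). In mitochondria the reductase Txnrd2 had deposited means of 5.73 CPM for Klrg1Cre and 8.98 CPM for control. In the deposited table that is 1.57-fold lower at an unadjusted p of 0.0190, the smallest p of all 57 genes, and it did not pass adjustment (adjusted p = 0.607). Txn2, the mitochondrial thioredoxin that Txnrd2 reduces, held 37.2 and 39.2 CPM in the Klrg1Cre libraries, against 38.2 and 36.5 CPM in those of control. These libraries overlapped, and the interval of the difference was narrow (0.03 on the log2(CPM + 1) scale, 95% interval -0.28 to 0.34).

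The remaining genes with a thioredoxin fold lay closer together. Txnl4a, a spliceosome component with a thioredoxin-like fold, had deposited means of 69.9 CPM for Klrg1Cre and 67.4 CPM for control (adjusted p = 0.948). Txnrd3, the reductase best known from testis, was below 1 CPM in both groups, at 0.402 CPM for Klrg1Cre and 0.409 CPM for control. Across all 16 listed genes of the thioredoxin group, 9 had higher and 7 lower deposited means, with a median log2 ratio of 0.04. Txndc12, a thioredoxin of the endoplasmic reticulum, had both Klrg1Cre libraries above both control libraries by a small margin, at 5.15 and 5.49 CPM in the Klrg1Cre libraries, against 4.73 and 5.01 CPM in those of control. Txndc15 had both below, at 8.92 and 8.24 CPM in the Klrg1Cre libraries, against 9.32 and 9.14 CPM in those of control. Txndc5, a protein disulfide isomerase of the endoplasmic reticulum, had deposited means of 13.2 CPM for Klrg1Cre and 11.7 CPM for control (adjusted p = 0.908).

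Peroxiredoxins, the thiol peroxidases that thioredoxin serves, had lower means in 4 of 6 members, and 0 passed an unadjusted p of 0.05. Prdx1, the major cytosolic member, held 52.2 and 39.0 CPM in the Klrg1Cre libraries, against 49.4 and 65.7 CPM in those of control. The groups overlapped: the larger Klrg1Cre library lay between the control libraries, and the smaller Klrg1Cre library lay below both. limma gave a difference of -0.33 for Prdx1 on the log2(CPM + 1) scale (95% interval -0.71 to 0.05, adjusted p = 0.713). Prdx6, which reduces phospholipid peroxides with glutathione, had deposited means of 43.8 CPM for Klrg1Cre and 40.4 CPM for control (adjusted p = 0.873). Prdx5, found in mitochondria, peroxisomes and cytosol, had deposited means of 35.7 CPM for Klrg1Cre and 39.3 CPM for control (adjusted p = 0.859), and its exons overlap those of Trmt112, as those of Prdx2 overlap Rnaseh2a, on the opposite strand. Prdx3, the mitochondrial member that Txn2 reduces, held 12.5 and 13.8 CPM in the Klrg1Cre libraries, against 11.3 and 14.8 CPM in those of control, so its Klrg1Cre libraries lay between the control libraries. Prdx2 had deposited means of 34.6 CPM for Klrg1Cre and 35.0 CPM for control, and Prdx4, the member of the endoplasmic reticulum, 5.63 and 6.93 CPM (adjusted p = 0.984 and 0.816).

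Glutaredoxins, which remove glutathione from protein thiols, included Glrx, the antioxidant gene with the largest group means. Glrx, the cytosolic enzyme, had deposited means of 78.1 CPM for Klrg1Cre and 94.7 CPM for control, 1.21-fold lower at an unadjusted p of 0.0595 (adjusted p = 0.709). It could not be split into libraries. Glrx3, an iron-sulfur cluster protein of the cytosol, had 7.72 CPM in both groups in the deposited table. Glrx5, its mitochondrial counterpart, held 6.11 and 7.55 CPM in the Klrg1Cre libraries, against 6.89 and 6.38 CPM in those of control, with overlapping libraries.

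Exons overlapped those of another gene for 15 of the 57 antioxidant genes, in 9 cases a gene of the deposited table, and whether the counting used strand is not given in the sources used here.

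Superoxide dismutases turn superoxide into hydrogen peroxide, and catalase breaks hydrogen peroxide down. Of the 4 listed genes, 1 had a higher and 3 had a lower mean, with a median log2 ratio of -0.22. Sod1, the cytosolic copper-zinc enzyme, held 23.3 and 31.7 CPM in the Klrg1Cre libraries, against 23.0 and 23.2 CPM in those of control. Both Klrg1Cre libraries were above both control libraries, though the larger only just, and the log2 ratio of 0.25 became 0.02 without the smaller Klrg1Cre library. Sod2, the mitochondrial manganese enzyme, held 35.4 and 25.7 CPM in the Klrg1Cre libraries, against 34.8 and 38.1 CPM in those of control. The groups overlapped, and the log2 ratio of -0.25 became -0.04 without the smaller Klrg1Cre library. Cat held 14.1 and 13.9 CPM in the Klrg1Cre libraries, against 15.3 and 16.6 CPM in those of control. All Cat libraries of Klrg1Cre were below those of control, by a difference of -0.17 on the log2(CPM + 1) scale (limma 95% interval -0.53 to 0.19, adjusted p = 0.877). Sod3, the extracellular enzyme, had 0 reads in both Klrg1Cre libraries and 12 and 0 reads in control. The pooled control rate of Sod3 was 2.48 times a floor of 3 reads over the Klrg1Cre group. That figure rests on the reads of 1 control library. It leaves out the counting error of those 12 reads and the spread between libraries, so it is not a lower bound. In the deposited table the unadjusted p of Sod3 was 0.794 (adjusted p = 0.963).

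Of the 24 genes with libraries in both groups, 3 had both Klrg1Cre libraries above both control libraries (Txn1, Txndc12 and Sod1) and 3 had both below (Gsta4, Txndc15 and Cat), while 18 overlapped. Among all 5351 genes so split, 19.3% were above and 18.3% below. Leaving out each library in turn kept the direction of 10 of the 23 antioxidant genes with reads in every library (43.5%), against 50.9% of all 5142 such genes. The lowest limit of any limma interval was -0.94, for Gsta4, and the highest was 1.01, for Gstm1, on the log2(CPM + 1) scale. The Gstm1 interval was also the widest of the 24.

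**Figure D3:**
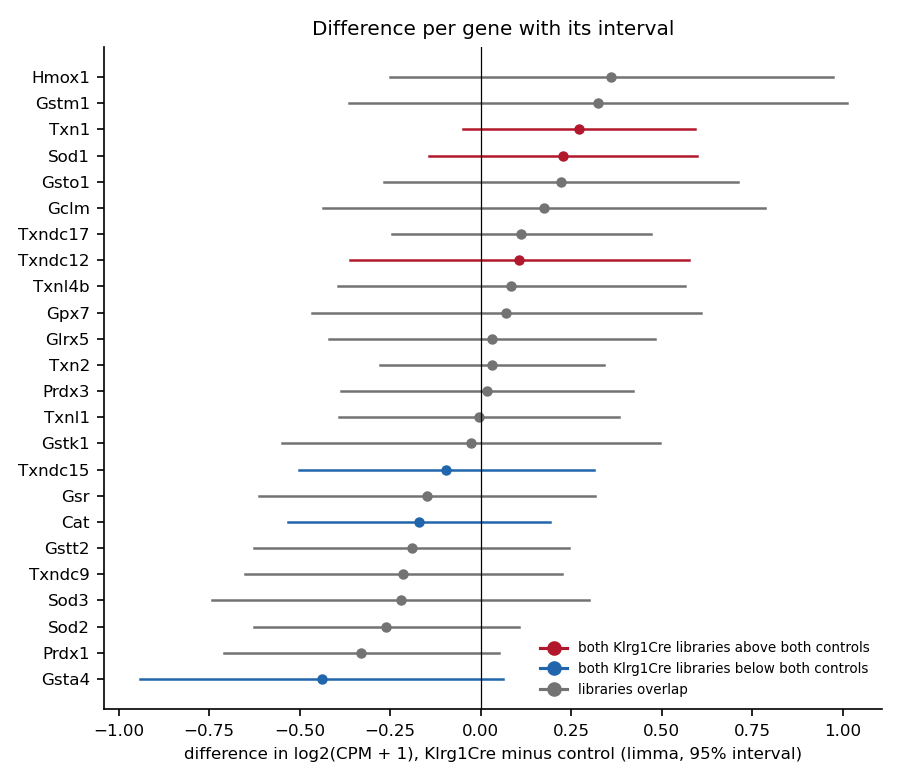
Difference in log2(CPM + 1), Klrg1Cre minus control, with its 95% limma interval for the 24 antioxidant genes split into libraries, sorted by size and coloured by whether the libraries overlapped. Every interval spans 0, the highest estimate is Hmox1 at 0.36 and the lowest Gsta4 at -0.44, and the red and blue genes are those whose libraries did not overlap.

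Levels between genes were compared per kilobase of merged exon in the GENCODE M21 basic annotation, which is of a later build than mm9. On this scale Glrx was highest, at 57.1 CPM per kilobase in Klrg1Cre and 69.4 in control, followed by Gpx4 at 39.9 and 46.9, Gpx1 at 47.8 and 41.6, Sod1 at 42.9 and 36.0 and Txn1 at 39.5 and 32.7. Neighbours in this order changed places between the genotypes, and without libraries for Glrx, Gpx1 and Gpx4 their order within the spread is unknown. Gpx1 and Sod1 thus stood above Gpx4 in Klrg1Cre and below it in control. Cat was at 5.37 CPM per kilobase in Klrg1Cre and 6.10 in control, and Gsr at 2.56 and 2.85. Enzymes of glutathione synthesis were low on this scale too, with Gclc at 3.47 and 2.98 CPM per kilobase, Gss at 1.66 and 1.80 and Gclm at 0.737 and 0.666.

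**Figure D4:**
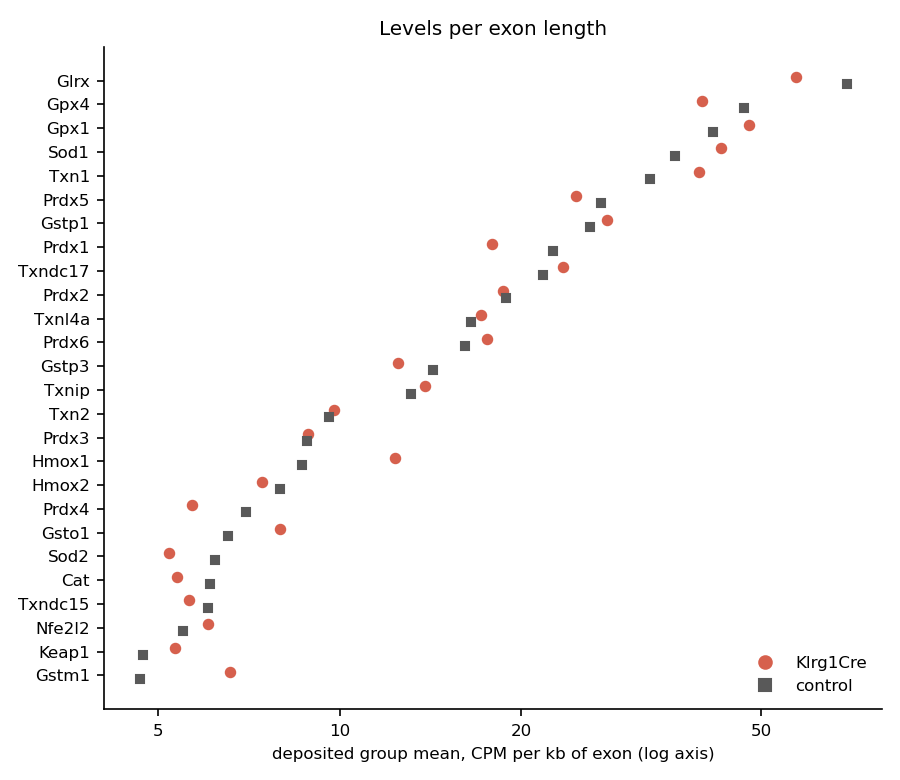
Deposited group means per kilobase of exon (log axis) for the antioxidant genes that reached 5 CPM per kilobase in either group, with circles for Klrg1Cre and squares for control, sorted by control. Glrx, Gpx4, Gpx1, Sod1 and Txn1 lead in both genotypes, and the distance between the markers of 1 gene is small beside the range between genes.

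Genes around the antioxidant enzymes were counted from lists named for their role. The background for every count below is that of all 11883 genes in the deposited table, of which 6014 had higher and 5869 lower means, and 3.72% were higher and 3.37% lower at an unadjusted p below 0.05. Of 27 listed NRF2 targets that are not among the 57, 19 had higher and 8 lower deposited means, with a median log2 ratio of 0.13, and 0 passed an adjusted p of 0.05. At an unadjusted p below 0.05 there was 1 higher, Slc3a2, the heavy chain of the cystine and large neutral amino acid transporters (97.4 CPM for Klrg1Cre and 80.01 CPM for control), and 1 lower, Ephx1, an epoxide hydrolase (3.81 and 5.83 CPM), which is near the background of 3.72% and 3.37%. Ftl1, ferritin light chain, was the most abundant of them, with deposited means of 1036 CPM for Klrg1Cre and 1024 CPM for control. Slc7a11, named after its values were seen, encodes the cystine importer that pairs with Slc3a2 and feeds glutathione synthesis, and it had deposited means of 4.26 CPM for Klrg1Cre and 2.73 CPM for control (unadjusted p = 0.0971). Of 29 listed genes of glutathione handling, 2 were higher and 1 lower at an unadjusted p below 0.05, and 0 passed adjustment in the deposited table. Over all genes 3.72% were higher and 3.37% lower at that threshold. The higher ones were Ggt1, the gamma-glutamyl transferase that breaks down extracellular glutathione (4.04 CPM for Klrg1Cre and 0.664 CPM for control, 6.08-fold, adjusted p = 0.209), and Chac1, which degrades glutathione in the cytosol and is induced by the integrated stress response. Chac1 held 1.42 and 1.92 CPM in the Klrg1Cre libraries, against 0.809 and 0.344 CPM in those of control, with an adjusted p of 0.612 in the deposited table. The lower one was Ggt7, at 1.64 CPM for Klrg1Cre and 3.86 CPM for control (adjusted p = 0.412). The most abundant gene of that list was Clic1, a chloride channel protein of the glutathione transferase fold, with 156.5 CPM for Klrg1Cre and 151.1 CPM for control.

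Selenoproteins and the factors that insert selenocysteine, on which Gpx1, Gpx4 and the thioredoxin reductases depend, had 11 higher and 8 lower deposited means among 19 listed, with 0 past adjustment. Selenom, a thiol oxidoreductase of the endoplasmic reticulum, held 7.88 and 5.97 CPM in the Klrg1Cre libraries, against 4.46 and 2.53 CPM in those of control (unadjusted p = 0.0112, adjusted p = 0.551). Selenot held 10.4 and 9.27 CPM in the Klrg1Cre libraries, against 14.3 and 12.4 CPM in those of control (unadjusted p = 0.0452). The most abundant was Selenow, with deposited means of 60.4 CPM for Klrg1Cre and 49.8 CPM for control. Among 28 listed genes of repair and disulfide exchange, 9 had higher and 19 lower means, and 1 was lower at an unadjusted p below 0.05, near the 3.37% of all genes. This was Ccs, the chaperone that loads copper into Sod1, at 9.76 and 13.9 CPM in the Klrg1Cre libraries, against 18.4 and 18.1 CPM in those of control (1.54-fold lower, adjusted p = 0.551). Both Klrg1Cre libraries of Ccs were below both control libraries, while both of Sod1 were above. P4hb, protein disulfide isomerase, was the most abundant of that list, with deposited means of 86.6 CPM for Klrg1Cre and 90.7 CPM for control. Of 12 listed sources of reactive oxygen species, 10 had higher means and 2 of these had an unadjusted p below 0.05, namely Ncf1, the organizer subunit of the phagocyte oxidase (7.85 CPM for Klrg1Cre and 4.91 CPM for control), and the proton channel gene Hvcn1 (40.6 and 30.9 CPM), with 0 past adjustment. Over all genes 6014 of 11883 had higher means and 3.72% were higher at that threshold, and no test of this list was run. The most abundant was Rac2, at 354.7 CPM for Klrg1Cre and 336.1 CPM for control. Of 16 genes on a list named for NRF2 degradation and repression, 0 passed adjustment in the deposited table. The list is broader than its name, since it also holds Hif1a, Mafg, Mafk and Maff. Among these 16 in the deposited table, Hif1a had the smallest p, with 83.6 CPM for Klrg1Cre and 114.1 CPM for control (unadjusted p = 0.0119, adjusted p = 0.551). Sqstm1 was the most abundant at 169.0 and 154.3 CPM. The lists share genes: Sqstm1, Bach1, Mafg, Mafk and Maff also stand on the list of NRF2 targets. Msrb1 stands on both the selenoprotein list and that of repair and disulfide exchange.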

How the data were processed

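RNA-seq was made from sorted lung Th2 cells, 2 samples per genotype. The submitters' processing notes name STAR, Partek and build mm9, with no versions or roles. The deposited group means are in CPM, each raised by 0.0001 CPM. The deposited ratio equalled the Klrg1Cre mean over the control mean, and the deposited signal per gene 2 times the sum of both means, in all 11883 rows to within a relative 1e-06. The signed fold change, a score made by the authors and used as deposited, was the ratio, or minus its inverse where Klrg1Cre was lower. This form was read from the values of the antioxidant genes. Its size without the sign gave the fold differences reported above and the counts at 1.25-fold and 1.5-fold. The model behind the deposited p-values is not given in the sources used here. The authors' adjusted values equalled a Benjamini-Hochberg adjustment over all 11883 genes.

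Library totals were the pair of whole numbers under which most low means split into whole reads, to within 1e-09 reads; means above 20000 CPM were not tried. limma 3.58.1 in R 4.3.3, with a trended variance, was run on log2(CPM + 1) of the 5351 genes split. Both steps were tested on simulated data. No count model was fitted, because only 45.0% of the genes were split. Headers call the Klrg1Cre group ILC2 deficient and control WT, a link inferred here. Named were the genes with an unadjusted p below 0.05, the 3 with the largest mean per role and 12 chosen for their role, as far as listed, and in each other list the most abundant gene and that of the smallest p; others were named after their values were seen. Lists and genes were chosen with earlier results of these data known. Tables were made with pandas 2.3.3, figures with matplotlib 3.10.9. Values of some genes that overlap the antioxidant genes are not reported here.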

Additional observations from a re-analysis of the deposited data

How the results depend on the processing

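No antioxidant gene passed an adjusted p of 0.05 in either direction with genes of at least 1 CPM, with genes of at least 5 CPM or with limma on the split libraries. At an unadjusted p the count of higher genes was 0 rather than 1 at 5 CPM, since Nqo2 lies below that level, and limma gave 0 higher and 0 lower because neither Nqo2 nor Txnrd2 could be split. The median log2 ratio stayed between -0.03 and 0.02 under every pseudocount, filter and scaling tried. The filters kept 48 genes at 1 CPM and 40 at 5 CPM, and the other settings covered all 57. Scaling to the table without Rn45s shifted every gene by -0.026. For glutathione S-transferases the median of -0.15 became 0.081 at 1 CPM and 0.095 at 5 CPM, and for superoxide dismutases and catalase -0.22 became -0.094 with a pseudocount of 5 CPM. Leave-one-out medians over split genes ranged from -0.041 to -0.0064 for all (0.02 with every library), from -0.20 to 0.29 for glutathione synthesis and reduction (-0.0035), from -0.37 to 0.35 for transferases (-0.15), from -0.35 to 0.053 for peroxiredoxins (-0.16), from -0.022 to 0.12 for thioredoxins (0.07) and from -0.35 to -0.11 for superoxide dismutases and catalase (-0.22). Apart from the filters, whose construction drops genes, the cause was not tested. No paired analysis was possible because the columns carry no replicate numbers. Without counts per sample, edgeR and DESeq2 were not run. Depth limits genes below about 1 CPM, 9 of the 57, most, and the smaller Klrg1Cre library limits that genotype.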
